A study of Rattus norvegicus with 18 samples.

Results

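The renin-angiotensin system was followed in the left ventricle of 3 groups of male rats through 8 genes chosen by symbol: Ace, Agt, Agtr1a, Agtr1b, Agtr2, Agtrap, Atp6ap2 and Nr3c2. Of these 8 genes, 3 (Ace, Agtr1a and Nr3c2) were found in at least 1 of the authors' 3 lists of changed genes. The other 5 were found in none. Together the lists hold 6588 distinct genes, non-coding ones included, and the RefSeq reference (GRCr8) holds 23154 protein-coding genes. Nothing is read from the count of 3. The gene set was drawn up knowing that Ace was raised in hypertensive lean hearts, so the folds of the 8 genes are given as a description and support nothing further. Polyadenylated RNA was sequenced from 6 Wistar Kyoto rats (WKY), the wild-type controls, 6 ZSF1 lean rats, which are hypertensive, and 6 ZSF1 obese rats, which have hypertension with metabolic syndrome and stand for heart failure in which the ejection fraction is preserved (HFpEF). All rats were male and all tissue was left ventricle. The sources used here give neither age nor treatment. WKY and ZSF1 are different strains, so hypertension and strain background cannot be told apart in a comparison of ZSF1 lean with WKY rats, nor can disease and strain in one of ZSF1 obese with WKY rats.

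Angiotensinogen, the product of Agt, is the source of angiotensin I, and angiotensin-converting enzyme, the product of Ace, a peptidase on the surface of endothelial and other cells, turns that into angiotensin II and also breaks down bradykinin. Angiotensin II acts on type 1 receptors, which rats encode in the closely similar genes Agtr1a and Agtr1b and which raise vascular tone and drive growth and fibrosis in the heart, and on the type 2 receptor Agtr2, which often opposes them. Angiotensin II also stimulates the adrenal gland to release aldosterone, the ligand of the mineralocorticoid receptor Nr3c2. Agtrap binds the type 1 receptor and promotes its internalisation, and Atp6ap2, the (pro)renin receptor, is also an accessory part of the vacuolar proton pump.

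Each list gives a gene's fold change, the level in the first-named group divided by that in the second, and an adjusted p-value from the authors' comparison of 6 rats with 6. No listed gene had a fold between 0.5 and 2 or an adjusted p of 0.05 or more. Values per rat, standard errors and read totals were not used here, so depth is unknown and no spread between rats can be shown beside a fold. A gene absent from a list may have changed by less than the limit, have failed the test or not have been detected, and these cannot be told apart. The lists held 233 genes for ZSF1 lean against WKY, 5700 for ZSF1 obese against ZSF1 lean and 5709 for ZSF1 obese against WKY. The largest adjusted p was 3.47e-04 in the lean list, against 0.0498 and 0.0499 in the obese lists, where 640 and 688 genes lay above the lean list's largest value. Absence from the lean list therefore does not mean the same as absence from the obese lists.

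Of the 8 genes, 1 was listed in ZSF1 lean against WKY hearts (12.5%), where 0.881% of the protein-coding genes of the reference were listed, 1 in ZSF1 obese against ZSF1 lean hearts (12.5%, background 22.8%) and 3 in ZSF1 obese against WKY hearts (37.5%, background 22.9%). Of all genes of the reference, non-coding ones included, 0.438%, 11.2% and 11.3% were listed. Among the listed genes 63.9%, 53.4% and 54% were higher, in the same order. These backgrounds count genes that the heart does not express, since the number of genes the authors tested is not known, and because the set was chosen with these lists in view nothing is read from the shares. None of the 8 genes was in all 3 lists.

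**Figure D1:**
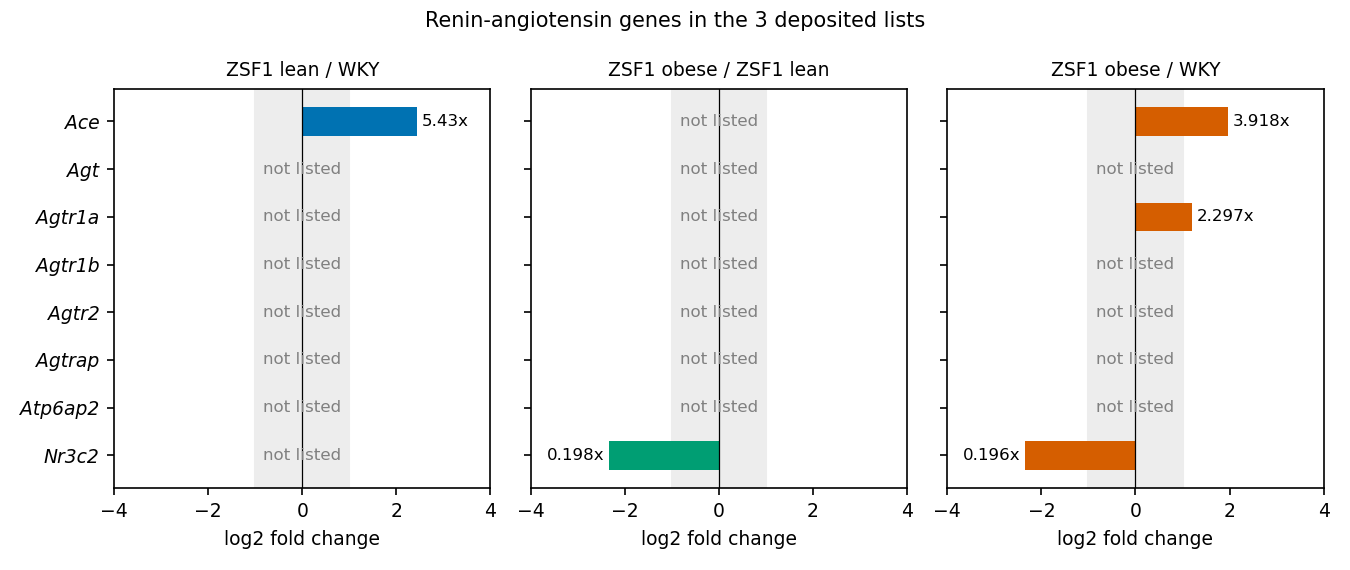
Log2 fold change of the 8 renin-angiotensin genes (rows) in the authors' 3 lists (panels); bars carry the linear fold, the grey band spans folds between 0.5 and 2, which the lists leave out, and "not listed" marks a gene absent from that list, not a fold of 1. Ace stood above WKY in both ZSF1 groups (5.43 and 3.92), Agtr1a in obese hearts (2.30), and Nr3c2 stood at 0.198 and 0.196 in obese hearts.

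Ace was the one gene of the set listed for ZSF1 lean against WKY hearts. Per the authors' deposited table Ace (ENSRNOG00000062101) was 5.43 times as high in ZSF1 lean as in WKY left ventricle (log2 fold 2.44, adjusted p = 8.85e-67). By fold it stood 16th among the 149 genes that were higher in lean hearts, and by adjusted p it stood 10th among all 233 listed genes. The median fold of the 149 higher genes was 2.41. In obese hearts the authors' deposited table placed Ace at 3.92 times the WKY level (log2 fold 1.97, adjusted p = 5.55e-24). There its place was 908th by fold among 3084 higher genes, whose median fold was 3.05. Ace was not listed for ZSF1 obese against ZSF1 lean hearts, so these lists hold no test value for a difference in Ace between the ZSF1 groups. The comparisons with WKY share the same 6 WKY rats, so the folds of 5.43 and 3.92 are not independent of each other.

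The promoter of Ace in RefSeq (build GRCr8, Brown Norway reference) is shown because Ace is the only member found in the lean list. Beside it are the promoters of its annotated neighbour Cyb561, listed in the same comparisons as Ace, and of Agtr1a, the other member that rose. The windows run from 250 bases before to 50 bases after the annotated start, on chr10:91409879-91410178 (plus strand) for Ace, chr10:91388387-91388686 (minus strand) for Cyb561 and chr17:34435383-34435682 (minus strand) for Agtr1a. Sequences run 5′ to 3′ on the gene's strand, and capitals mark every match, on either strand, to GGGCGG (a GC box), TATAA or CCAAT.
Ace: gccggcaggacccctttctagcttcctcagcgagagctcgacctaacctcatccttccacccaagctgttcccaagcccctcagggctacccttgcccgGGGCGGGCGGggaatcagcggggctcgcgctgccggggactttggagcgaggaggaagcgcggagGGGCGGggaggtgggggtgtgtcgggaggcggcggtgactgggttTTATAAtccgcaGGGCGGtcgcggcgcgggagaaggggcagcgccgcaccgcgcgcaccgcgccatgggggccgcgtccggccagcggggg
Cyb561: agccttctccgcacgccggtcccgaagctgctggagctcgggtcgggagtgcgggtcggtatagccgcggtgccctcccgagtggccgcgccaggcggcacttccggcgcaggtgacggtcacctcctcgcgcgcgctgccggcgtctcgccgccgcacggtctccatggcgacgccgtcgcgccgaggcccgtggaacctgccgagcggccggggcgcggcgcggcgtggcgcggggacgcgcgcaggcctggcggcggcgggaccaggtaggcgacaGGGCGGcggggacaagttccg
Agtr1a: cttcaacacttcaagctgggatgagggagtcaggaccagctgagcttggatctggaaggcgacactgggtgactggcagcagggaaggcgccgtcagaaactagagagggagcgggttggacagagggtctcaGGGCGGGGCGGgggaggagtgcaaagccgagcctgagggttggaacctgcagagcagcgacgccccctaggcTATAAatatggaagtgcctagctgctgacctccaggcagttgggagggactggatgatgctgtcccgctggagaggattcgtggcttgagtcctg
The Ace window held 4 matches to GGGCGG and 2 to TATAA, the latter overlapping each other on opposite strands, and 72.3% of its bases were G or C. That of Agtr1a held 2 overlapping GGGCGG matches, 1 TATAA match and 60.7% G or C, and that of Cyb561 1 GGGCGG match, 0 TATAA matches and 78% G or C. CCAAT was found in none of the 3 windows. Of 27457 promoter windows of the same length, 34.9% held GGGCGG, 26.1% TATAA and 37.7% CCAAT, and the median share of G or C was 52.3%. A match describes these letters in the reference strain, and the sequence of the WKY and ZSF1 rats was not analysed here.

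Cyb561, which encodes a membrane protein that carries electrons from ascorbate, lies 2 places before Ace in the order of annotated genes. The authors' deposited table gave Cyb561 a fold of 2.17 in ZSF1 lean against WKY hearts (adjusted p = 7.27e-10) and a fold of 2.85 in ZSF1 obese against WKY hearts (adjusted p = 7.14e-11). Cyb561, like Ace, was not listed between the ZSF1 groups. Among the 80 annotated neighbours of the 8 genes, 5 on each side, Cyb561 was the only one in the lean list. In the obese lists 10 (against ZSF1 lean) and 12 (against WKY) of the 36 protein-coding neighbours were listed (27.8% and 33.3%, beside 22.8% and 22.9% of all protein-coding genes). In the lean list it was 1 of 36 (2.78%, beside 0.881%). On the other side of Ace, Taco1, a gene for a translational activator of mitochondrial cytochrome oxidase, stood at 0.178 of the WKY level in obese hearts per the authors' deposited table. Taco1 was not in the lean list.

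Apart from Ace, 50 genes were higher in both ZSF1 groups against WKY and absent from the obese against lean list. By the largest difference in log2 fold over these 2 lists, those closest to Ace with an established symbol included Fbp2, Trim16, Rtel1 and Rubcnl. The folds of Fbp2, the muscle fructose bisphosphatase gene, were 6.87 in lean and 5.94 in obese hearts per the authors' deposited tables, a largest difference of 0.6 from Ace. Those of Trim16 were 7.36 and 6.02 per the authors' deposited tables, a largest difference of 0.62. Rtel1 and Rubcnl differed from Ace by 0.781 and 0.799 on the log2 scale.

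**Figure D2:**
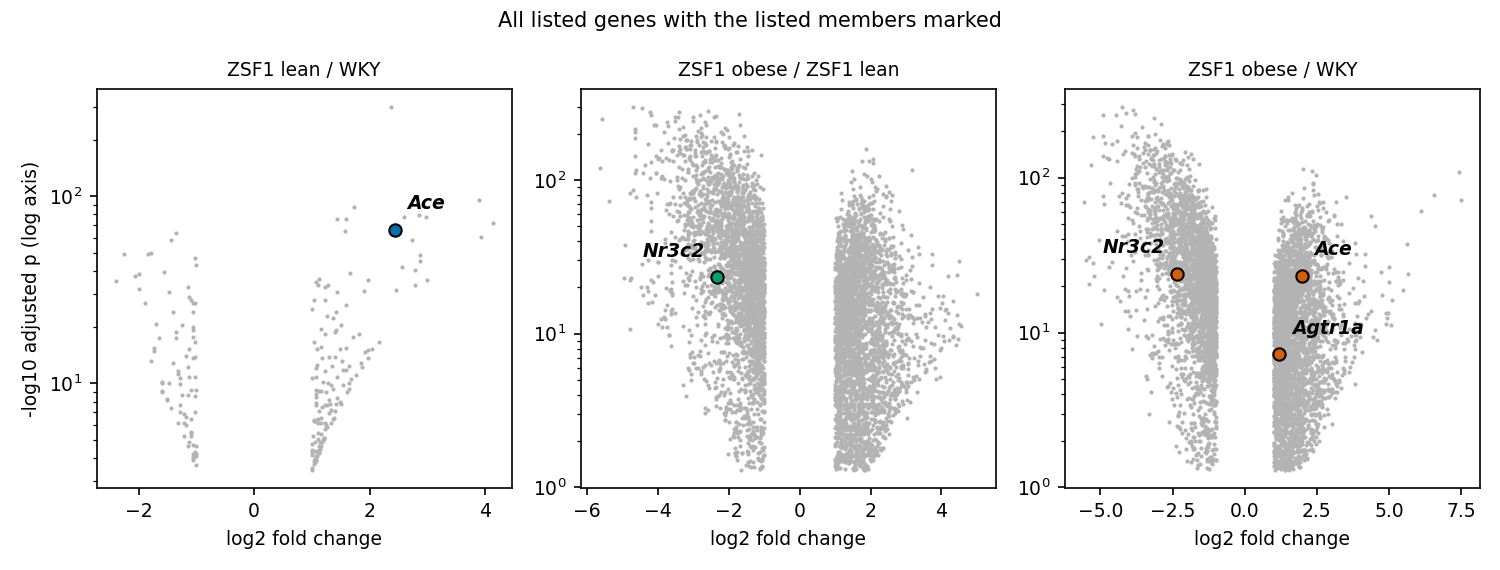
Log2 fold change (horizontal) against −log10 of the adjusted p (vertical, log axis) for every gene of the 3 lists, with the listed renin-angiotensin genes in colour; genes whose adjusted p was deposited as 0 (17 in the middle panel, 4 in the right) are not drawn. Ace stands among the smallest adjusted p-values of the lean list and in the bulk of the obese list, where Agtr1a lies near the lower limit of the folds.

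Cell type markers were set beside Ace, since in bulk tissue more cells of a type and more RNA per cell cannot be told apart. In ZSF1 lean against WKY hearts 0 of 12 endothelial, 0 of 12 macrophage, 0 of 12 fibroblast and 0 of 12 smooth muscle and pericyte markers were listed, in a list that holds 0.881% of protein-coding genes. Mast cell markers were higher there in 2 of 11 cases and neutrophil markers lower in 4 of 10. In ZSF1 obese against WKY hearts, where Ace stood at 3.92, 10 of 12 endothelial markers rose and 0 fell. That list holds 22.9% of protein-coding genes. The median fold of these endothelial markers was 3.23 beside 3.05 over all genes that rose. The authors' deposited table gave the endothelial genes Eng and Esam folds of 4.11 and 4.56. All 12 macrophage markers rose as well, with folds of 2.30 to 7.21 and a median of 4.53. The part of these cell types in the Ace fold of obese hearts was not tested. In obese against lean hearts 10 of 12 endothelial markers rose too, with a median fold of 3.52, and Ace was not listed. The obese against lean list holds 22.8% of protein-coding genes.

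Of 6 other genes chosen for enzymes reported to form angiotensin peptides, 0 were in the lean list, where 0.881% of protein-coding genes were listed. In the obese lists 2 (33.3%, beside 22.8%) and 1 (16.7%, beside 22.9%) of the 6 were listed, against lean and WKY in that order. Cma1, the mast cell chymase gene, had a fold of 2.71 in ZSF1 obese against ZSF1 lean hearts (adjusted p = 2.22e-04) per the authors' deposited table. Against WKY its fold was 3.97 (adjusted p = 3.42e-06) per the authors' deposited table. Whether its product forms angiotensin II in these hearts was not tested. Cma1 is itself a mast cell marker and is included in the marker counts that follow. Of 11 markers of mast cells, 5 rose and 0 fell in obese against WKY hearts, and 4 rose and 1 fell against lean hearts (45.5% in each, beside 22.9% and 22.8% of protein-coding genes). In the lean list 2 of them rose, the tryptase genes Tpsab1 (fold 2.35) and Tpsb2 (fold 2.06) per the authors' deposited table. Tpsb2 was also the marker that fell in obese against lean hearts, with a fold of 0.5 per the authors' deposited table (adjusted p = 2.26e-04). Whether the Cma1 fold follows the number of mast cells was not tested. Ctsd, the gene for the lysosomal protease cathepsin D, was lower in obese than in lean hearts, with a fold of 0.493 per the authors' deposited table (adjusted p = 3.31e-30).

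Peptidases that trim or degrade angiotensin peptides were listed in the obese comparisons and mostly rose. Of 15 such genes, 6 rose and 2 fell against lean hearts (53.3%, beside 22.8% of protein-coding genes). The median fold of the 6 that rose was 2.82, beside 3.01 over all genes that rose. Against WKY, 7 rose and 2 fell (60%, beside 22.9%), and the median fold of the 7 was 3.32 beside 3.05. Cpa3, among those 7, is also a mast cell marker and is in the mast cell counts above. Of all listed genes, 53.4% and 54% were higher.

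Prcp, a carboxypeptidase that removes the last residue of angiotensin II, had folds of 5.82 against lean and 3.51 against WKY hearts per the authors' deposited tables (adjusted p = 1.27e-65 and 7.39e-32). Enpep, the gene for aminopeptidase A, which turns angiotensin II into angiotensin III, had folds of 2.45 and 2.75 in the same order per the authors' deposited tables. For Rnpep, the aminopeptidase B gene, they were 2.83 and 3.36 per the authors' deposited tables. The genes that fell were Mme, for neprilysin, and Prep, for prolyl endopeptidase, enzymes that can release angiotensin-(1-7) from angiotensin I. Mme stood at 0.406 of the lean and 0.429 of the WKY level per the authors' deposited tables (adjusted p = 4.30e-11 and 1.73e-05). Prep stood at 0.435 and 0.429 per the authors' deposited tables. The endothelial and macrophage markers above rose in the same comparisons as the peptidases that rose, and their part was not tested. Cardiomyocyte markers fell in both obese comparisons, 7 of 12 in each with 0 rises (58.3%, beside 22.8% and 22.9% of protein-coding genes). Their part in the folds of Mme and Prep was not tested.

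Bdkrb2, which encodes the bradykinin B2 receptor, whose ligand Ace inactivates, was with Spp1 the only gene of the 9 pathway lists found higher in all 3 comparisons. The authors' deposited tables gave Bdkrb2 a fold of 2.53 in ZSF1 lean against WKY (adjusted p = 1.43e-10), 2.85 in ZSF1 obese against ZSF1 lean (adjusted p = 5.82e-12) and 9.06 in ZSF1 obese against WKY hearts (adjusted p = 4.52e-51). Mas1, the receptor gene for angiotensin-(1-7), had folds of 4.72 against lean and 4.06 against WKY hearts per the authors' deposited tables (adjusted p = 0.00216 and 0.00365). Both p-values of Mas1 are larger than the largest one in the lean list. The other 8 of the 10 genes for kinins and other angiotensin peptide receptors, among them Mrgprd and Bdkrb1, were not listed in any comparison. The 2 of 10 listed in each obese comparison (20%) lie below the 22.8% and 22.9% of protein-coding genes, so nothing is read about the family from its count.

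**Figure D3:**
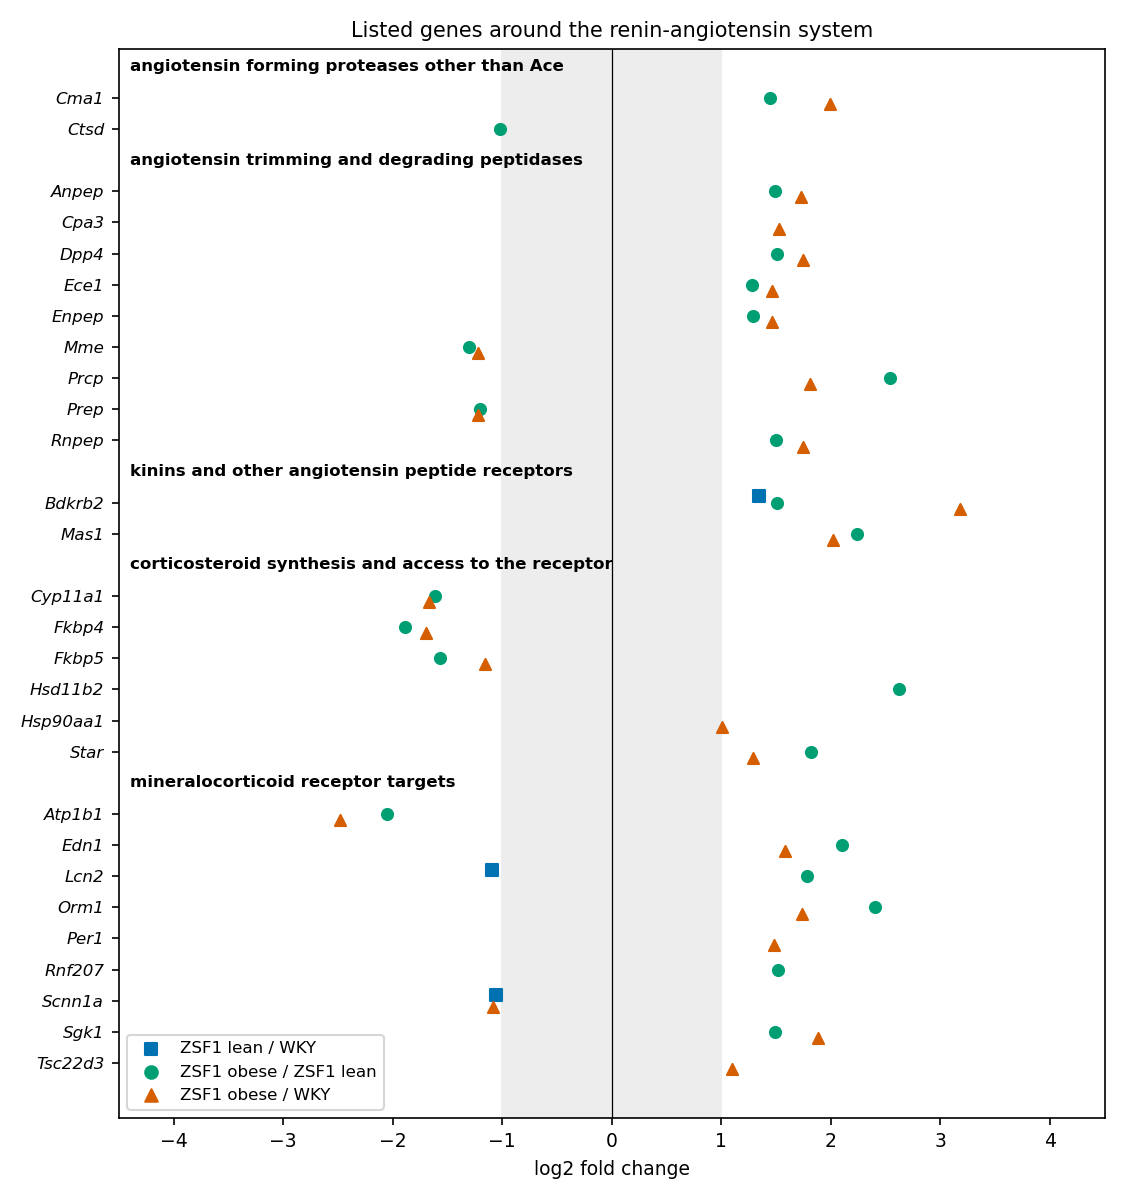
Log2 fold change of listed genes in 5 of the pathway lists, with squares for ZSF1 lean against WKY, circles for ZSF1 obese against ZSF1 lean and triangles for ZSF1 obese against WKY. The grey band spans the folds the lists leave out, and a symbol missing from a gene's row means it was not listed in that comparison. A listed gene of the mineralocorticoid receptor targets is not drawn. Bdkrb2 carries all 3 symbols to the right of 0, and Mme, Prep, Fkbp4, Fkbp5, Cyp11a1 and Atp1b1 lie to the left in both obese comparisons.

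Among the angiotensin receptors, Agtr1a was listed and Agtr1b and Agtr2 were not. Per the authors' deposited table Agtr1a (ENSRNOG00000018346) was 2.30 times as high in ZSF1 obese as in WKY hearts (log2 fold 1.20, adjusted p = 6.09e-08). This is the member nearest to the fold limit of 2, and it stood 2550th by fold among the 3084 genes that rose. Agtr1a was not listed for obese against lean or lean against WKY hearts, so these lists do not show in which of those steps its level differed. Agtr1a and Agtr1b are similar in sequence, and the sources used here do not say how reads that fit both were counted, so the split between them is uncertain. In the same comparison 9 of 12 fibroblast markers rose (75%, beside 22.9% of protein-coding genes listed). Their median fold was 3.46. Of 12 smooth muscle and pericyte markers, 5 rose and 2 fell there (58.3%, beside 22.9%), and the median fold of the 5 was 6.28. The part of these cell types in the Agtr1a fold was not tested.

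Genes that couple or desensitise the type 1 receptor went both ways. Of 29 such genes, 6 rose and 4 fell in each obese comparison (34.5%, beside 22.8% and 22.9% of protein-coding genes), and 0 were in the lean list. Prkce and Prkca, protein kinase C genes, stood at 0.157 and 0.241 of the lean level per the authors' deposited table (adjusted p = 2.42e-64 and 2.22e-116). Gna12, a G protein subunit gene, stood at 0.444 per the authors' deposited table. Cardiomyocyte markers fell in the same comparisons, 7 of 12 in each, with median folds of 0.247 against lean and 0.213 against WKY hearts, and their part in these falls was not tested. Arrb2, the gene for beta-arrestin 2, which removes activated receptors from the membrane, had a fold of 3.07 against lean and 2.99 against WKY hearts per the authors' deposited tables. Gnaq, the G protein subunit gene through which the type 1 receptor signals to phospholipase C, was in none of the lists, nor was Agtrap.

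The short list of partners of the type 2 receptor was made up of Mtus1, Ptpn6 and Zbtb16. Mtus1, which encodes a protein that binds the tail of the receptor, stood at 0.403 of the lean and 0.334 of the WKY level in obese hearts per the authors' deposited tables. Ptpn6, a phosphatase gene of blood cells, rose with folds of 3.92 and 3.86 per the authors' deposited tables. Zbtb16 stood at 0.493 against lean hearts per the authors' deposited table (adjusted p = 0.0244).

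Atp6ap2 was in none of the lists, while some genes of the proton pump it belongs to were. Of 25 genes for pump subunits and proteases that process Atp6ap2, 2 rose and 5 fell against lean hearts (28%, beside 22.8%), and 1 rose and 5 fell against WKY (24%, beside 22.9%). Atp6v1g2 stood at 0.118 of the lean and 0.089 of the WKY level per the authors' deposited tables, and Atp6v0e2 at 0.252 and 0.233. Atp6v1e1, which codes for a stalk subunit, stood at 0.483 and 0.395 per the authors' deposited tables. Adam19, a protease reported to cleave Atp6ap2, stood at 0.349 and 0.301 per the authors' deposited tables. Tcirg1, the pump subunit of osteoclasts and immune cells, rose with folds of 2.30 and 2.81 per the authors' deposited tables. The share of the list that was called was close to the background.

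Nr3c2, the mineralocorticoid receptor gene, was lower in obese hearts against both other groups. Per the authors' deposited tables Nr3c2 (ENSRNOG00000034007) stood at 0.198 of the ZSF1 lean level (log2 fold -2.34, adjusted p = 5.65e-24) and at 0.196 of the WKY level (log2 fold -2.35, adjusted p = 9.83e-25). It ranked 603rd by fold among the 2655 genes that fell against lean hearts and 603rd among the 2625 that fell against WKY. The median folds of those genes were 0.314 and 0.312. Nr3c2 was not in the list for ZSF1 lean against WKY. The obese comparisons share the same 6 obese rats, so the folds of 0.198 and 0.196 are not independent.

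Of 12 cardiomyocyte markers, 7 fell and 0 rose in each obese comparison (58.3%, beside 22.8% and 22.9% of protein-coding genes listed). The folds of those 7 ran from 0.084 to 0.369 against lean hearts, where the median of all genes that fell was 0.314. Small nucleolar RNAs, which mostly lack a poly(A) tail, rose in 21 of 23 listed cases against lean and in 25 of 26 against WKY hearts, and mitochondrially encoded mRNAs in 12 of 12 and 11 of 11. Over all listed genes, 53.4% and 54% were higher in these comparisons. In the lean list 1 small nucleolar RNA and 0 mitochondrial mRNAs were found. The part of cell composition or of RNA make-up in the fold of Nr3c2 was not tested.

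Genes that make corticosteroids or govern their access to the receptor gave 2 rises and 3 falls among 15 in each obese comparison (33.3%, beside 22.8% and 22.9%). Fkbp4 and Fkbp5 encode immunophilins of the steroid receptor complex. Fkbp4 stood at 0.27 of the lean and 0.308 of the WKY level per the authors' deposited tables (adjusted p = 1.90e-58 and 1.49e-45), and Fkbp5 at 0.337 and 0.448. Hsd11b2, whose enzyme inactivates glucocorticoids and so leaves the receptor to aldosterone, had a fold of 6.15 against lean hearts per the authors' deposited table (adjusted p = 5.33e-04), and was not listed against WKY. Its p-value also lies above the largest of the lean list. Of the genes for corticosteroid synthesis, Cyp11a1 stood at 0.328 of the lean and 0.314 of the WKY level per the authors' deposited tables (adjusted p = 8.03e-13 and 1.38e-08). Star had folds of 3.53 and 2.45 in the same order per the authors' deposited tables (adjusted p = 4.24e-04 and 0.0204). Both p-values of Star lie above the largest of the lean list. Cyp11b2, the aldosterone synthase gene, and Nr3c1, the glucocorticoid receptor gene, were in none of the lists.

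Targets of the mineralocorticoid receptor did not move one way in obese hearts, where the receptor gene itself was lower. Of 16 targets, 5 rose and 2 fell against lean hearts (43.8%, beside 22.8%) and 5 rose and 3 fell against WKY (50%, beside 22.9%). Sgk1, a kinase gene induced by the receptor, had folds of 2.81 and 3.68 per the authors' deposited tables (adjusted p = 3.34e-25 and 6.05e-46). Atp1b1, a subunit of the sodium pump, stood at 0.241 of the lean level and 0.179 of the WKY level per the authors' deposited tables (adjusted p = 2.10e-35 and 9.02e-46). Sgk1 is also induced by glucocorticoids, and many of these targets respond to both receptors.

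In ZSF1 lean against WKY hearts 2 of the 16 targets were lower, Lcn2 and Scnn1a. Lcn2, the lipocalin gene, stood at 0.47 of the WKY level in lean hearts and at 3.43 times the lean level in obese hearts per the authors' deposited tables. Neutrophils also express Lcn2. Of 10 neutrophil markers, 4 were lower in lean against WKY hearts and 6 higher in obese against lean hearts. Of protein-coding genes, 0.881% and 22.8% were listed in these comparisons. Among these markers S100a9 stood at 0.33 and 22.8 per the authors' deposited tables. In obese against WKY hearts 2 of the 10 markers rose and 0 fell (20%, beside 22.9% of protein-coding genes). Neither Lcn2 nor S100a9 was listed in that comparison. The part of neutrophils in the folds of Lcn2 was not tested. Scnn1a, a subunit of the epithelial sodium channel, stood at 0.48 in lean and 0.473 in obese hearts against WKY per the authors' deposited tables (adjusted p = 8.72e-05 and 0.0125).

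Genes that angiotensin II is known to induce gave more rises than falls in obese hearts. Of 24 genes, 15 rose and 2 fell against lean hearts (70.8%, beside 22.8% of protein-coding genes), and 16 rose and 2 fell against WKY (75%, beside 22.9%). Of all listed genes, 53.4% and 54% were higher. The median fold of the genes that rose was 5.28 against lean and 4.98 against WKY hearts, beside 3.01 and 3.05 over all genes that rose. Markers of other cells rose in the same comparison with lean hearts, 11 of 12 for macrophages (median fold 3.32), 10 of 12 for endothelium (3.52), 7 of 12 for fibroblasts (4.2) and 6 of 10 for neutrophils (15.1), with 0 falls in each. Against WKY, 2 of 10 neutrophil markers rose and 0 fell (20%, beside 22.9%). Acta2, a smooth muscle gene, is in a marker list as well. Many of these response genes are also induced by other signals or expressed by immune cells. The part of these cells in the counts was not tested. Cyba and Cybb, subunits of the NADPH oxidase, had folds of 5.70 and 5.82 against lean hearts per the authors' deposited table. Tgfb1, a growth factor gene of fibrosis, had a fold of 4.20, Fn1, the fibronectin gene, one of 7.21 and Icam1, an adhesion molecule gene, one of 5.43 per the authors' deposited table. The 2 that fell were Rcan1, a calcineurin inhibitor gene, at 0.154 of the lean level, and Ncf1, a cytosolic oxidase subunit gene, at 0.49 per the authors' deposited table.

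In ZSF1 lean against WKY hearts 1 of these 24 response genes was listed (4.17%, beside 0.881% of protein-coding genes). This was Spp1, the osteopontin gene, with a fold of 2.35 (adjusted p = 7.74e-07), followed by folds of 10.2 in obese against lean and 30.5 in obese against WKY hearts, per the authors' deposited table. Over the 9 pathway lists together, with each gene counted once, 4 of 141 genes were listed in lean against WKY hearts (2.84%, beside 0.881%), 2 of which rose and 2 fell. In each obese comparison 60 of the 141 were listed (42.6%, beside 22.8% and 22.9% of protein-coding genes). There were 39 rises and 21 falls against lean and 40 rises and 20 falls against WKY.

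**Figure D4:**
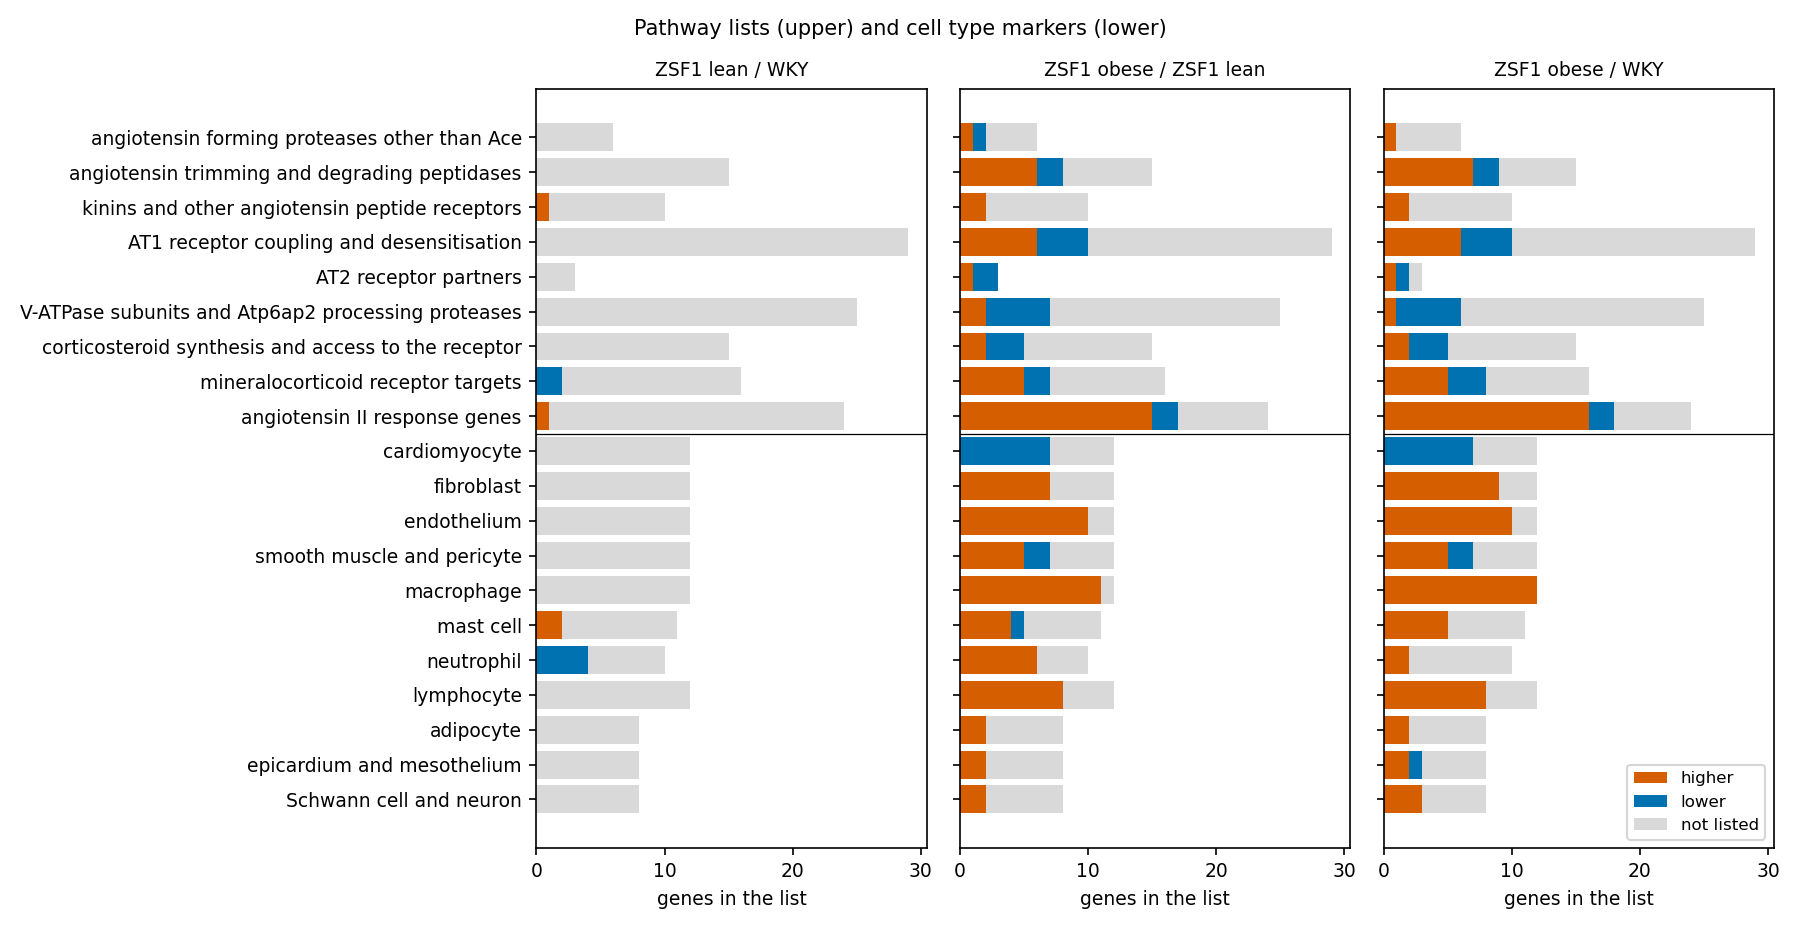
Number of genes higher (orange), lower (blue) and not listed (grey) in each pathway list (above the line) and each list of cell type markers (below it), with 1 panel per comparison and bar length giving the genes in the list. In ZSF1 lean against WKY 4 pathway genes carry colour, while in both obese comparisons cardiomyocyte markers are lower and endothelial, macrophage, fibroblast and lymphocyte markers higher.

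The 5 genes found in no list were Agt, Agtr1b, Agtr2, Agtrap and Atp6ap2. For them the lists show only that no comparison reached a fold of 2 in either direction together with the adjusted p of a listed gene. A search by the older symbols of all 8 genes in the reference found 0 further rows.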

How the data were processed

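Polyadenylated RNA of rat left ventricle was sequenced from 6 rats in each of 3 groups. Per the submitters' processing notes, the tools included DESeq2 1.22.2, HISAT2 2.1.0 and HTSeq 0.11.2, with build Rnor_6.0; the sources used here state no settings. The deposited values used are a linear fold, which is the ratio of the first-named group's level to the other's, and an FDR, an adjusted p-value, per gene, as the authors gave them. No new test was made, since values per rat were not used. Depth and batches are unknown, and batch and group cannot be told apart.

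Genes were matched by symbol. Of the list genes, Klk2 and Mcpt2 matched neither the lists nor the reference and were left out. Log2 folds, ranks, medians and counts were computed with Python 3.11.15 and pandas 2.3.3, and the counting was tested on simulated data. Names, neighbour order and promoters come from RefSeq (GRCr8), and 6 of the 8 genes had a promoter entry. The members and the 9 pathway and 11 marker lists were chosen with earlier results of these data known. Named genes were the members, fixed anchors, and up to 4 genes per pathway list and 2 per marker list by adjusted p, the 5 genes most like Ace, and listed neighbours. A few genes covered by this rule are not named in the text. Tcirg1, Cybb, Rcan1 and Ncf1, and the unlisted Mrgprd, Bdkrb1, Gnaq, Cyp11b2 and Nr3c1, were chosen after their values were seen. Alternatives were stricter limits on adjusted p and fold, older symbols, another background and another distance.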

Additional observations from a re-analysis of the deposited data

How the results depend on the processing

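No paired analysis was possible because the groups share no replicate numbers and no test was made here. Leaving out a rat needs values per rat and was not run, and matching by Ensembl identifier was not run because the reference table pairs 0 genes with one. The count of the 8 genes listed stayed at 1, 1 and 3 with an adjusted p under 0.01 or under 0.001, with older symbols, and with the lean list's largest adjusted p, a limit chosen after seeing the data. At a fold of at least 3 either way Agtr1a (2.30) was lost, which left 2 genes in obese against WKY hearts. That fold limit also left 2 of 10 pathway and marker genes in lean against WKY, 76 of 124 in obese against lean and 77 of 124 in obese against WKY hearts. With protein-coding genes alone as the background, in place of all genes, the listed share was 0.881% in place of 0.438%, 22.8% in place of 11.2% and 22.9% in place of 11.3%, since fewer genes are counted. By Euclidean distance 4 of the 5 genes most like Ace remained.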

Other observations

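The folds of the 3 lists do not close on each other. For the 79 genes in all 3, the obese against WKY fold divided by the obese against lean fold differed from the deposited lean against WKY fold by a median of 0.22 on the log2 scale, with a range of -1.82 to 2.56. Of 4847 genes in both obese lists, 235 had a quotient of at least 2-fold either way. These included all 79 genes found in all 3 lists, and 156 genes that were not in the lean list. The lean list ended at an adjusted p of 3.47e-04, so absence from it need not be a failure to close. Because the folds differed as above, no lean level was derived for Nr3c2, Bdkrb2 or any other gene from the obese lists.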
